A study of Rattus norvegicus with 9 samples.

Results

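The 31 genes described here code for targets of the transcription factor NRF2 and for enzymes that make, use or regenerate glutathione. They were taken by symbol from a fixed list, which was chosen with earlier results of these data known. All 31 were found among the 36856 genes of the rat RefSeq gene table to which the deposited transcripts were matched. The cells were H9c2(2-1), a clonal rat line derived from embryonic BD1X heart and labelled as wild-type myoblasts, and all came from this 1 line. ESW cells received energized structured water at a dilution of 0.01 for 72 h, CW cells received control water on the same schedule, and Control cells were left untreated in growth medium. All groups were grown in DMEM with 10% FBS and 1% antibiotics at 37 °C and 5% CO2, and diluted water was renewed every 24 h. Each group had 3 RNA-seq libraries, and the labels do not say whether these came from separate cultures, so a p-value here reflects the spread among these libraries alone, which may be technical.

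NRF2, the product of Nfe2l2, is held at a low level by KEAP1, which presents it for degradation. Oxidants and electrophiles modify KEAP1, NRF2 then accumulates, and with a small MAF partner it binds antioxidant response elements near genes for detoxification, thiol reduction and NADPH supply. Glutathione is made from glutamate, cysteine and glycine, is consumed by glutathione S-transferases and peroxidases, and is regenerated from its oxidised form by an NADPH-dependent reductase. In muscle and heart cells this system is known for buffering the peroxides that respiration produces.

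The libraries held 26748673 to 48574618 estimated reads, and 13961 to 15054 genes per library had at least 10. The myoblast label was checked against 12 muscle lineage genes in CPM, a count scaled to a common library size. Those detected included Vim at 2657 to 2978 CPM, Ncam1 at 448.5 to 503.1 CPM and Itga7 at 181.8 to 231.3 CPM. Mef2c lay at 43.0 to 50.6 CPM, Cdh15 at 29.8 to 36.7 CPM and Myod1 at 7.59 to 11.2 CPM. Des, at 3.88 to 6.65 CPM, and Myog, at 2.00 to 3.58 CPM, were low. Myf5, Myf6, Pax7 and Pax3 stayed under 1 CPM in every library. All 12 blood markers, 9 of 12 cardiomyocyte markers, 8 of 9 epithelial and liver markers and 7 of 10 endothelial markers were under 1 CPM in every library. Among the rest were the cardiomyocyte marker Tnnt2 at 51.4 to 62.3 CPM and the epithelial marker Krt8 at 49.2 to 64.6 CPM. The endothelial markers Egfl7 and Flt1 lay at 30.2 to 36.5 and 31.8 to 36.8 CPM. In CPM these 4 were above Des, Myod1 and Myog in every library, but below Vim, Ncam1 and Itga7. In TPM, which is also scaled for transcript length, Flt1 was below Myod1 in ESW replicates 2 and 3 and CW replicates 1 and 2. Some markers of other cell types were thus detected, so the markers do not single out myoblasts. The summed level of the myoblast markers, most of it from Vim, was also higher in ESW. It was 3770 to 3810 CPM in ESW, 3480 to 3580 CPM in CW and 3390 to 3630 CPM in Control. Itga7 was called higher in ESW in both comparisons, and Vim against Control alone. Some fibroblast markers were abundant and higher in ESW too. Their summed level, nearly all of it from Col1a1, Col1a2 and Col3a1, was 90300 to 93600 CPM in ESW, against 76700 to 80600 CPM in CW and 75500 to 80600 CPM in Control. Pdgfra and Fap were under 1 CPM, with Fap at 0 throughout, while Col1a1, Col1a2, Col3a1 and Pdgfrb rose in ESW in both comparisons. Dcn, Lum and Postn were called in neither, Thy1 was called higher against CW alone, and 0 of 9 tested were called in CW against Control. The part of the markers that rose in the results was not tested, and in bulk RNA fewer cells of a type and less RNA per cell cannot be told apart. Control replicate 1 stood apart on the first principal component, which held 24.1% of the variance: it lay at -10.93, within the ESW range of -28.73 to -8.79, while Control replicates 2 and 3 lay at 7.08 and 12.33. Counts of called members are therefore also given without that library.

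Levels are compared between genes in TPM, an abundance scaled for transcript length and library size. Averaged over the 9 libraries, 8 of the 31 genes were at 100 TPM or more, 14 between 10 and 100, 5 between 1 and 10, and 4 below 1. Txn1, the small disulfide reductase thioredoxin, averaged 1575 TPM, and Gstp1, the pi-class glutathione S-transferase, 1028 TPM. The Txn1 value rests on a 330-base transcript whose effective length averaged 118 bases in ESW, 116 in CW and 120 in Control, so it is sensitive to the length correction. Nqo1, a quinone reductase, followed at 300.4 TPM and Akr1b8, an aldo-keto reductase, at 252 TPM, and their ranges over libraries overlapped. Taldo1, Tkt and Pgd, enzymes of the pentose phosphate pathway, came next at 162, 161 and 149 TPM, with overlapping ranges. At the low end Mgst1 averaged 1.08 TPM, Aox1 0.886 TPM, Osgin1 0.826 TPM and Nqo2 0.123 TPM, and Gstk1 had 1 estimated read over all 9 libraries. Of the 30 pairs of neighbours in this order, 17 overlapped in range over the 9 libraries. Overlap of these ranges does not mean that 2 genes changed places within a library. Nqo1, for example, was above Akr1b8 in every library.

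**Figure D1:**
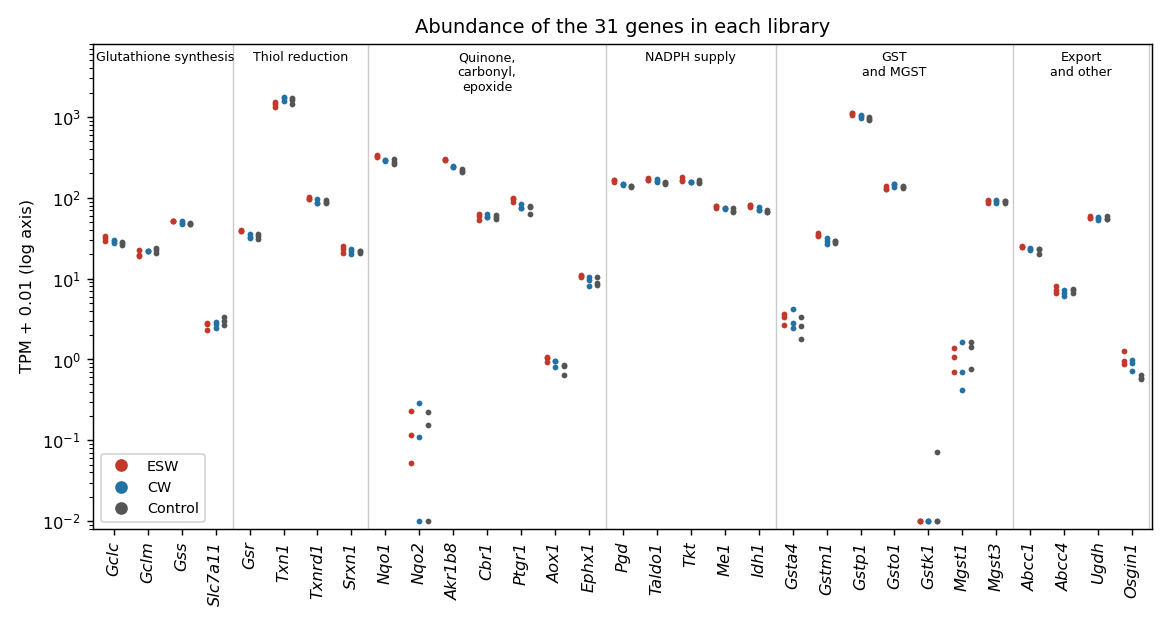
TPM of the 31 genes (vertical log axis, 0.01 added) in each of the 9 libraries, grouped by role, with ESW, CW and Control points side by side. Txn1 and Gstp1 are the most abundant in every library, whereas Nqo2 and Gstk1 lie at the bottom, and differences between groups are small beside differences between genes.

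The promoters of 3 genes that rose in ESW are shown because they contain the letters of the antioxidant response element core, TGACNNNGC, read on either strand (GCNNNGTCA on the other). The search covered RefSeq windows of 300 bases in the GRCr8 build, 250 before each start site and 50 after it. Of 33469 such windows, 4038 (12.1%) held the core. Among the 29 member genes with a window, 7 held it (24.1%), against 3602 of 27457 genes overall (13.1%). Each line gives the 250 bases before the start site, 5′ to 3′ on the gene's own strand, with the core in capitals.
Txnrd1: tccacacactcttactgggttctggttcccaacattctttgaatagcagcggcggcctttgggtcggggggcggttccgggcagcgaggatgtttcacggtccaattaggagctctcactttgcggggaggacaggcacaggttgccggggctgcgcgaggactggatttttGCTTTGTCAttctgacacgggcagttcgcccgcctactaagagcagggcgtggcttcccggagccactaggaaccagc
Idh1: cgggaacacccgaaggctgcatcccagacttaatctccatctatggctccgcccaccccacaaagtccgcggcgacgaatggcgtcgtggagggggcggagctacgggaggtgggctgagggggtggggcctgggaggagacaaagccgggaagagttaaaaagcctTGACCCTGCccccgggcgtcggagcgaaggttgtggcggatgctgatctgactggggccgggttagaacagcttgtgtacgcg
Gstp1: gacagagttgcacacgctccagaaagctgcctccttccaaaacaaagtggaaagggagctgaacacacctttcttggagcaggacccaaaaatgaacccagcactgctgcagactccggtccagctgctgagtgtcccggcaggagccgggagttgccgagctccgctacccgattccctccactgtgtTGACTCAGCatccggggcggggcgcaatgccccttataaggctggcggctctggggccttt
The Txnrd1 sequence, the first of its 2 windows, is chr7:22755905-22756154, minus strand, and its core GCTTTGTCA begins 78 bases before the start. The Idh1 sequence is chr9:74049475-74049724, minus strand, with TGACCCTGC beginning 83 bases before the start. The Gstp1 sequence is chr1:210769706-210769955, minus strand, with TGACTCAGC beginning 61 bases before the start. Gclm, Me1, Ugdh and Ephx1 held the core too, at 172, 167, 207 and 57 bases before a start, and none of these was called in any comparison. Gsr and Ptgr1 had no window in the table. A match of letters describes the sequence and does not show that a factor binds there.

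The comparison of ESW with untreated cells asked which transcripts differed after the full treatment. The culture time and medium renewal of Control cells are not stated separately, so here too they cannot be told apart from the water. In ESW, 12 of the 29 tested genes rose and 0 fell, by the edgeR quasi-likelihood test with Benjamini-Hochberg adjustment over all 14706 tested genes. That is 41.4% of the tested members called as higher, where 4.76% of all tested genes were called as higher, 3.28% as lower and 8.04% in either direction. The rises covered glutathione synthesis and recycling (Gclc, Gsr), thioredoxin reduction (Txnrd1), reduction of quinones and carbonyls (Nqo1, Akr1b8, Ptgr1), NADPH supply (Pgd, Tkt, Idh1), transferases (Gstm1, Gstp1) and Osgin1, a growth and oxidative stress responsive gene. Apart from Osgin1, at 1.75-fold and under 2 CPM, they were small, between 1.09-fold for Tkt and 1.29-fold for Akr1b8. The other 17 did not pass the test, and Nqo2 and Gstk1 were too low to enter it.

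Over the 29 genes the median log2 fold change of ESW against Control was 0.12, with 22 positive and 7 negative, against a median of -0.01 over all tested genes. ESW and Control libraries did not overlap for 15 of the 29 genes, where 25.6% of all tested genes did not overlap. At an unadjusted p under 0.05, 15 were higher and 2, Txn1 and Gsto1, were lower, where 22.8% of all tested genes passed in either direction. The count of called members was 11 without Control replicate 1, but 5 without ESW replicate 3, 6 without ESW replicate 2, 6 without Control replicate 3 and 7 without Control replicate 2. In the same order, these fits called 1544, 397, 818, 590 and 534 genes in all, of 14978 to 15055 tested. With all 9 libraries 1183 genes were called, so the count over all genes moved too.

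The comparison of ESW with CW set structured against control water, both added in the same way. Relative to CW, 8 of the 29 genes rose in ESW, 0 fell and 21 did not pass the test, where 8.14% of all tested genes were called, 4.15% as higher and 3.99% as lower. The 8 were Akr1b8, Gsr, Pgd, Nqo1, Idh1, Ptgr1, Gstm1 and Txnrd1, each also called against Control, and both comparisons use the same 3 ESW libraries. The rises ran between 1.101-fold for Txnrd1 and 1.19-fold for Ptgr1. The median log2 fold change over the 29 genes was 0.10, with 25 positive and 4 negative, against a median of -0.002 over all tested genes. ESW and CW libraries did not overlap for 13 genes, where 28.3% of all tested genes did not overlap. At an unadjusted p under 0.05, 11 were higher and 2 lower, where 23.9% of all tested genes passed in either direction. Without Control replicate 1, 11 members were called, 9 higher and 2 lower, Txn1 and Gsto1. The called members numbered 5 without ESW replicate 1, 4 higher and Txn1 lower, and all were higher in the other cases: 3 when either of ESW replicates 2 and 3 was dropped, 1 when CW replicate 2 was dropped and 2 when CW replicate 3 was dropped. All genes called numbered 1486 without Control replicate 1 and 1157, 571 and 314 without ESW replicates 1, 2 and 3. They numbered 407 and 474 without CW replicates 2 and 3. These fits tested 14965 to 15055 genes, and 1197 were called with all 9 libraries.

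The comparison of CW with Control set added water against none, and the culture time and medium renewal of Control cells are not stated separately, so these cannot be told apart from the water. None of the 29 genes was called in CW by edgeR, DESeq2 or limma-voom, where 0.177% of all tested genes were called by edgeR, 0.0272% as higher and 0.15% as lower, and the count was also 0 without Control replicate 1. At an unadjusted p under 0.05, Taldo1, Osgin1 and Akr1b8 were higher in CW and Slc7a11 was lower, against 9.87% of all tested genes in either direction. The median log2 fold change was 0.04, with 24 positive and 5 negative, against 0 over all tested genes. CW and Control libraries did not overlap for 5 genes, Pgd, Osgin1, Akr1b8, Aox1 and Ugdh, where 14.7% of all tested genes did not overlap. The summed level of the 31 genes was 2382, 2394 and 2393 CPM in the ESW libraries, 2214, 2214 and 2246 CPM in the CW libraries, and 2158, 2193 and 2132 CPM in the Control libraries. Much of this sum came from Gstp1, Nqo1, Tkt, Pgd and Txnrd1, which averaged 340.5, 240.3, 224.6, 209 and 198.6 CPM in ESW. All of these were called in ESW against Control, so the sum does not describe the 31 genes alike, and it was not tested.

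**Figure D2:**
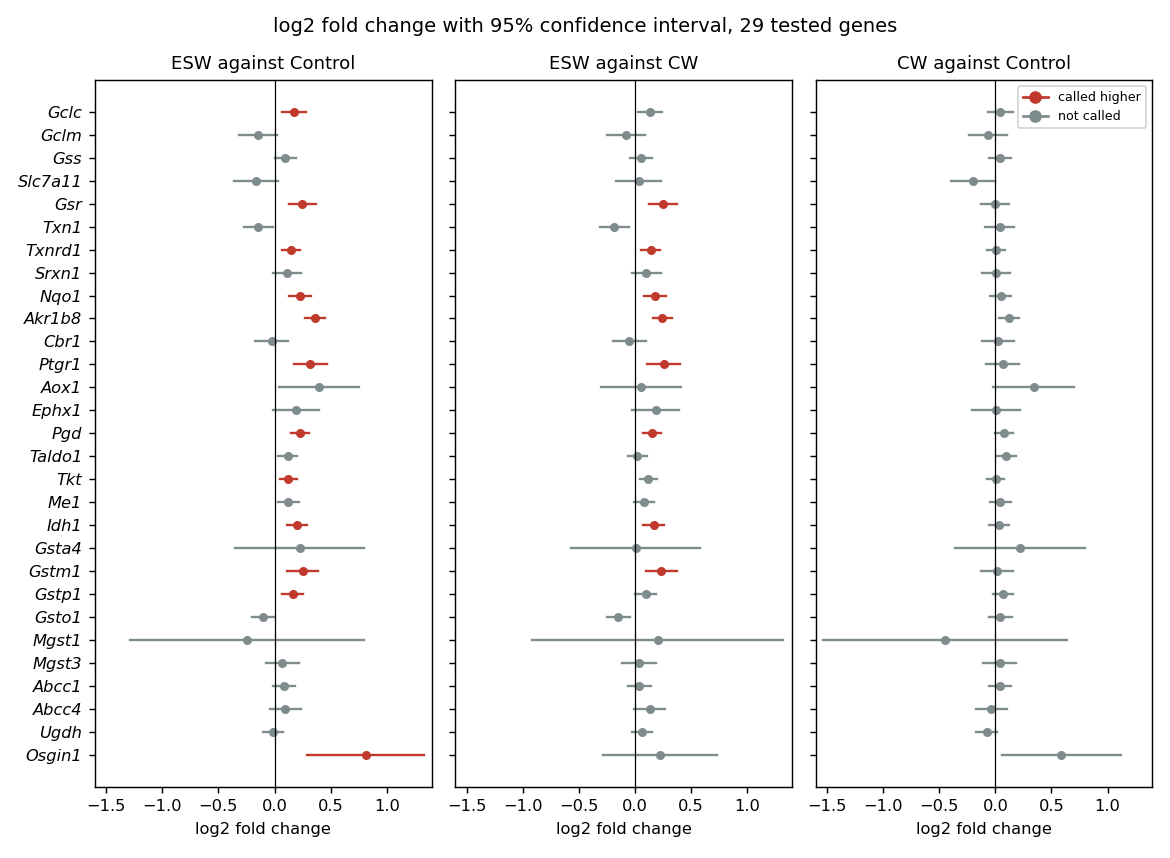
Log2 fold change (horizontal axis) of the 29 tested genes with its 95% confidence interval, in panels for ESW set against each of Control and CW and for CW set against Control. Red marks genes called higher, 12, 8 and 0 of them in the 3 panels, and the wide intervals of Mgst1, Gsta4, Aox1 and Osgin1 belong to genes at low read counts.

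Glutathione synthesis starts with glutamate-cysteine ligase, whose catalytic subunit is the product of Gclc and whose modifier subunit is that of Gclm. Gclc had 53.8, 56.7 and 60.5 CPM in ESW, 53.5, 49.6 and 53.1 CPM in CW, and 51.6, 51.4 and 48.4 CPM in Control. All ESW libraries were above every other library, though the lowest ESW library was close to the highest CW library. Gclc rose by 0.18 ± 0.051 on the log2 scale against Control (SE, n = 3 each, adjusted p = 0.0394), and against CW its difference of 0.13 did not pass the test (adjusted p = 0.122). The call was lost under 7 of 17 alternatives, among them without ESW replicate 2 or 3, CW replicate 3 or Control replicate 2 or 3 (adjusted p = 0.054 to 0.223), and in a fit of the ESW and Control libraries alone (0.0525). Gclm had 11.0, 11.2 and 12.4 CPM in ESW, 12.01, 12.1 and 12.5 CPM in CW, and 12.8, 11.9 and 13.6 CPM in Control. Its groups overlapped in all comparisons, and the log2 fold change of ESW against Control was -0.15 (adjusted p = 0.28), the sign opposite to that of Gclc.

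Gss, the synthetase that adds glycine in the second step, had 57.7, 56.4 and 55.3 CPM in ESW, 53.2, 56.4 and 53.3 CPM in CW, and 51.1, 54.5 and 53.0 CPM in Control. The ESW libraries lay above all Control libraries but overlapped CW, and the log2 fold change of 0.09 against Control did not pass the test (adjusted p = 0.219). Slc7a11, the cystine importer of the system xc- exchanger, had 8.97, 10.8 and 10.3 CPM in ESW, 10.6, 8.90 and 10.1 CPM in CW, and 11.8, 10.6 and 11.4 CPM in Control. Its groups overlapped throughout, with log2 fold changes of -0.16 against Control (adjusted p = 0.301) and 0.03 against CW (adjusted p = 0.875).

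Among the enzymes that reduce thiols, Gsr codes for glutathione reductase. It had 39.2, 37.1 and 36.1 CPM in ESW, 33.6, 31.1 and 30.2 CPM in CW, and 33.4, 31.7 and 29.8 CPM in Control. Every ESW library was above every CW and Control library, and CW and Control covered nearly the same range. Gsr rose by 0.25 ± 0.058 on the log2 scale against Control (SE, n = 3 each, adjusted p = 0.0125) and by 0.25 ± 0.059 against CW (adjusted p = 0.0143). The call against Control was lost without Control replicate 3 (adjusted p = 0.0768), and that against CW without CW replicate 2 (0.0731) or 3 (0.0827).

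Txnrd1, the cytosolic selenoenzyme that reduces thioredoxin, had 200.2, 201 and 195 CPM in ESW, 189, 174 and 179 CPM in CW, and 183, 180.2 and 176 CPM in Control. Its ESW libraries were again above all others. It rose by 0.14 ± 0.039 on the log2 scale against Control (SE, n = 3 each, adjusted p = 0.0262) and by 0.14 ± 0.039 against CW (adjusted p = 0.034). Both calls were lost without any 1 of the ESW libraries or without replicate 2 or 3 of the group compared (adjusted p = 0.0624 to 0.107 against Control and 0.0696 to 0.175 against CW), and with average transcript length offsets (0.108 and 0.0665). Txn1, the substrate of that reductase, had 114, 96.4 and 99.2 CPM in ESW, 111, 115 and 126 CPM in CW, and 106, 114 and 122.7 CPM in Control. ESW replicates 2 and 3 were below every other library while ESW replicate 1 lay within the range of the other groups. Txn1 did not pass the test against Control (log2 fold change -0.15, adjusted p = 0.165) or CW (-0.18, adjusted p = 0.0763), and without ESW replicate 1 it was called lower in both comparisons (adjusted p = 0.0285 against Control and 0.0127 against CW). Without Control replicate 1 it was called lower against CW (adjusted p = 0.0412). Srxn1, the sulfiredoxin that repairs overoxidised peroxiredoxins, ranged between 35.4 and 41.2 CPM in ESW, 33.6 and 38.2 CPM in CW, and 34.6 and 36.3 CPM in Control, with overlapping groups and no call.

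Quinones and reactive carbonyls are reduced by a second set of products. Nqo1, the NAD(P)H quinone reductase most often used as a readout of NRF2, had 245, 233 and 243 CPM in ESW, 206, 211 and 219.6 CPM in CW, and 202, 221 and 193 CPM in Control. All ESW libraries were above the highest library of the other groups. Nqo1 rose by 0.23 ± 0.046 on the log2 scale against Control (SE, n = 3 each, adjusted p = 0.00529) and by 0.18 ± 0.046 against CW (adjusted p = 0.0215). The call against CW was lost without ESW replicate 1 or 3 or CW replicate 1 or 2 (adjusted p = 0.0548 to 0.101). Nqo2, the related quinone reductase that uses dihydronicotinamide riboside, had 0 to 6 estimated reads per library, between 0.0237 and 0.143 CPM in ESW, 0 and 0.185 CPM in CW, and 0 and 0.122 CPM in Control, so that no difference was detectable at this depth.

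Akr1b8, a rodent aldo-keto reductase that reduces aldehydes, gave the smallest adjusted p of the 29 genes in both ESW comparisons. It had 147.5, 158 and 158 CPM in ESW, 131, 128 and 132 CPM in CW, and 118, 126 and 116 CPM in Control. The groups did not overlap at all, with ESW highest, CW between and Control lowest. Akr1b8 rose by 0.36 ± 0.042 on the log2 scale against Control (SE, n = 3 each, adjusted p = 9.22e-05) and by 0.24 ± 0.042 against CW (adjusted p = 0.00245), and CW against Control gave 0.12 (adjusted p = 0.331). Its effective transcript length also differed, averaging 863 bases in ESW, 891 in CW and 928 in Control, and with an offset for that length the log2 fold change against Control was 0.44.

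Ptgr1, prostaglandin reductase 1, which reduces unsaturated aldehydes and ketones, had 45.2, 49.5 and 49.6 CPM in ESW, 42.8, 39.0 and 39.3 CPM in CW, and 41.6, 40.9 and 33.5 CPM in Control. ESW did not overlap the other groups, and Control replicate 3 was the lowest library. It rose by 0.32 ± 0.069 on the log2 scale against Control (SE, n = 3 each, adjusted p = 0.00802) and by 0.26 ± 0.07 against CW (adjusted p = 0.0299). Without ESW replicate 3 the call against Control was lost (adjusted p = 0.0554), and the call against CW was lost without replicate 2 or 3 of ESW or of CW (adjusted p = 0.11 to 0.14).

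Cbr1, Aox1 and Ephx1 were not called. Cbr1, a carbonyl reductase, ranged between 25.6 and 31.04 CPM in ESW, 28.2 and 30.8 CPM in CW, and 26.9 and 30.7 CPM in Control, and its reads are uncertain because the copies Cbr1l1 and Cbr1l2 held 31% and 29.3% as many reads. Aox1, an aldehyde oxidase, ranged between 2.80 and 3.35 CPM in ESW, 2.85 and 3.18 CPM in CW, and 1.81 and 2.69 CPM in Control, so ESW and CW were both above Control without overlap (adjusted p = 0.17 for ESW against Control and 0.532 for CW against Control). Ephx1, the microsomal epoxide hydrolase, ranged between 11.0 and 11.9 CPM in ESW, 8.92 and 11.4 CPM in CW, and 9.14 and 11.5 CPM in Control, with overlapping groups.

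NADPH for these reductases comes largely from the pentose phosphate pathway, malic enzyme and cytosolic isocitrate dehydrogenase. Pgd, 6-phosphogluconate dehydrogenase, had 217, 209 and 201 CPM in ESW, 189, 191 and 185 CPM in CW, and 178, 183 and 175 CPM in Control. The 3 groups did not overlap. Pgd rose by 0.23 ± 0.038 on the log2 scale against Control (SE, n = 3 each, adjusted p = 0.00156) and by 0.15 ± 0.039 against CW (adjusted p = 0.0209), while CW against Control gave 0.07 (adjusted p = 0.545). The call against CW was lost without ESW replicate 1 or 2 or CW replicate 2 or 3 (adjusted p = 0.0641 to 0.0992). Idh1, cytosolic isocitrate dehydrogenase, had 91.6, 90.4 and 91.1 CPM in ESW, 85.3, 77.3 and 81.0 CPM in CW, and 81.9, 78.2 and 77.7 CPM in Control. Its ESW libraries were all above the others and had the narrowest spread of the 3 groups. Idh1 rose by 0.20 ± 0.043 on the log2 scale against Control (SE, n = 3 each, adjusted p = 0.00765) and by 0.17 ± 0.043 against CW (adjusted p = 0.0237), the second call being lost without any 1 of the ESW libraries or CW replicate 2 or 3 (adjusted p = 0.0507 to 0.149) and with average transcript length offsets (0.0744).

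Tkt, transketolase, had 225, 229 and 219.8 CPM in ESW, 204, 207 and 209.8 CPM in CW, and 210.2, 209 and 200.1 CPM in Control. ESW lay above both other groups, which overlapped each other. Tkt rose by 0.12 ± 0.037 on the log2 scale against Control (SE, n = 3 each, adjusted p = 0.0435), close to the threshold, and this call was lost under 12 of 17 alternatives, among them without any 1 of the ESW libraries or without replicate 2 or 3 of CW or of Control (adjusted p = 0.0606 to 0.174). Against CW the difference was 0.12 and missed the threshold (adjusted p = 0.0518), which it passed without Control replicate 1 (0.0472) or 3 (0.0456). Taldo1, transaldolase, ranged between 98.2 and 102 CPM in ESW, 94.4 and 102 CPM in CW, and 90.3 and 95.3 CPM in Control, with adjusted p = 0.0885 for ESW against Control. Me1, cytosolic malic enzyme, ranged between 118 and 127 CPM in ESW, 115 and 118 CPM in CW, and 109 and 120.2 CPM in Control (adjusted p = 0.0889 for ESW against Control). Without Control replicate 1, Me1 was called higher in ESW than in Control (log2 fold change 0.17, adjusted p = 0.0159).

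Glutathione S-transferases couple glutathione to electrophiles. Gstm1, of the mu class, had 19.0, 20.0 and 20.5 CPM in ESW, 16.1, 17.6 and 16.8 CPM in CW, and 16.1, 16.7 and 17.2 CPM in Control. All ESW libraries were above all others, and CW and Control overlapped. Gstm1 rose by 0.25 ± 0.065 on the log2 scale against Control (SE, n = 3 each, adjusted p = 0.0216) and by 0.24 ± 0.066 against CW (adjusted p = 0.0337). The first call was lost without ESW replicate 2 or 3 or Control replicate 2 (adjusted p = 0.0654 to 0.115), and the second without ESW replicate 2 or 3 or any 1 of the CW libraries (0.0655 to 0.146). Mu-class genes are similar in sequence, so the estimated split of reads among them is uncertain. Gstp1 had 325, 350.2 and 346 CPM in ESW, 305, 318 and 334 CPM in CW, and 289.6, 317 and 305 CPM in Control. ESW lay above Control but overlapped CW, since CW replicate 3 was above ESW replicate 1. Gstp1 rose by 0.16 ± 0.044 on the log2 scale against Control (SE, n = 3 each, adjusted p = 0.0266) and did not pass the test against CW (0.09, adjusted p = 0.199). Its call was lost without ESW replicate 2 or 3 or Control replicate 1 or 3 (adjusted p = 0.071 to 0.128).

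The other transferases did not follow that pattern. Gsto1, of the omega class, ranged between 48.3 and 51.2 CPM in ESW, 52.3 and 56.7 CPM in CW, and 51.0 and 55.0 CPM in Control. It was the 1 member whose ESW libraries all lay below CW, with a log2 fold change of -0.15 that did not pass the test (adjusted p = 0.0664) but did so without Control replicate 1 (0.0424). Mgst3, a microsomal transferase, ranged between 22.1 and 27.2 CPM in ESW, 22.1 and 24.9 CPM in CW, and 23.0 and 23.9 CPM in Control. Gsta4, the alpha-class enzyme that handles 4-hydroxynonenal, stayed under 2 CPM and Mgst1 under 1 CPM in every library, and neither passed the test. Gstk1, the kappa-class transferase, was effectively undetected.

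The remaining genes act after conjugation or elsewhere. Abcc1, an exporter of conjugates and other organic anions, ranged between 112 and 119 CPM in ESW, 112 and 114 CPM in CW, and 101 and 116 CPM in Control. Abcc4, a related exporter, ranged between 21.9 and 24.3 CPM in ESW, 20.5 and 23.0 CPM in CW, and 21.1 and 22.8 CPM in Control, and the groups of both genes overlapped in every comparison. Ugdh, which makes UDP-glucuronate, ranged between 64.1 and 66.9 CPM in ESW, 61.3 and 63.6 CPM in CW, and 63.7 and 68.8 CPM in Control, and was not called. Osgin1 had 1.38, 1.45 and 1.86 CPM in ESW, 1.04, 1.397 and 1.53 CPM in CW, and 0.841, 0.922 and 0.897 CPM in Control. These values rest on 28 to 65 estimated reads per library, and both ESW and CW lay above Control while overlapping each other. Osgin1 was called against Control at 0.81 ± 0.249 on the log2 scale (SE, n = 3 each, adjusted p = 0.0495), and CW against Control gave 0.59 (adjusted p = 0.446). DESeq2 gave it no adjusted p, and its call was lost under 12 of the other 16 alternatives, among them leaving out any 1 library other than CW replicate 1 (adjusted p = 0.0588 to 0.219).

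**Figure D3:**
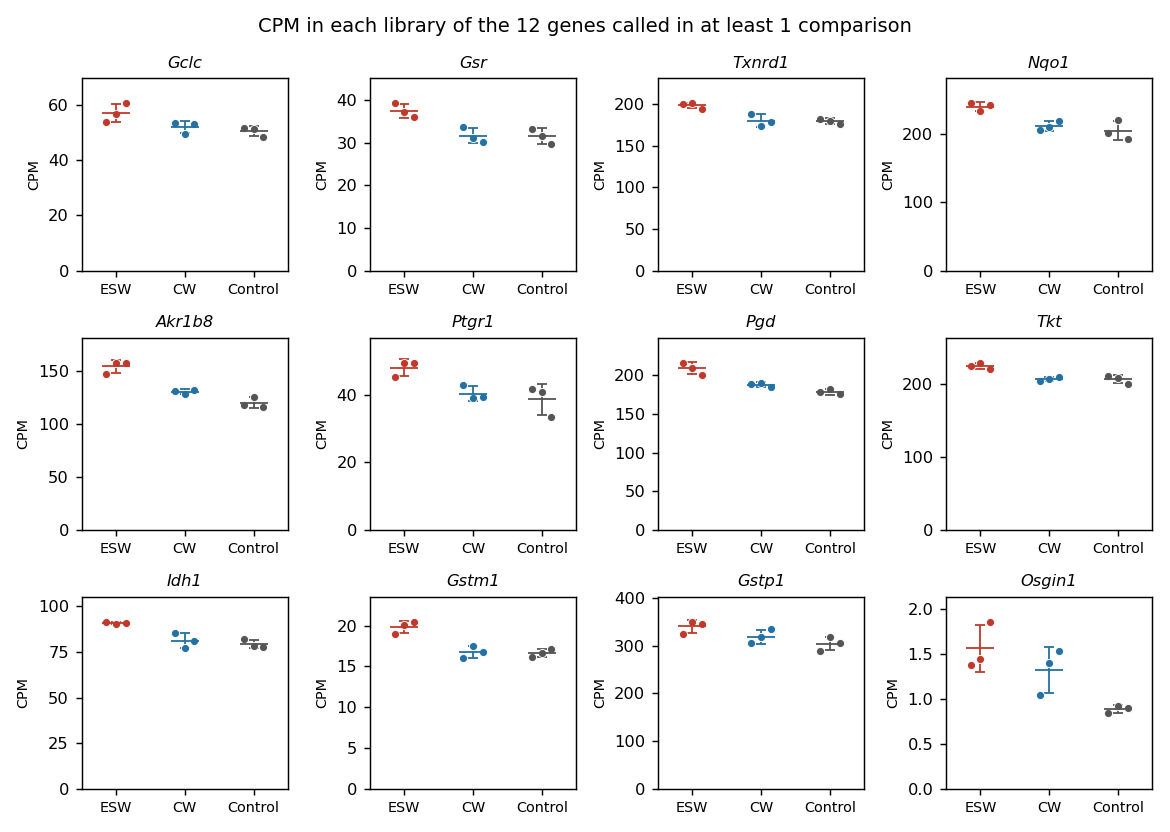
CPM (vertical axes, from 0) in each library for the 12 genes called in at least 1 comparison; bars show the mean and SD of 3 libraries in ESW, CW and Control. ESW points lie above all Control points in every panel, and for Gstp1 and Osgin1 they overlap the CW points.

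Transcript models affect how firmly these gene totals can be read. In 21 of the 31 genes a leading transcript held over 95% of the reads, Nqo1, Akr1b8 and Pgd among them, each with 1 transcript in the annotation. Idh1 was split over 4 transcripts, and its leading one held 21.1% to 37.2% of the reads in ESW libraries, 23.8% to 68.1% in CW and 19.2% to 41.8% in Control. Osgin1 had 16 annotated transcripts, and the leading one held between 0% and 100% of the reads within each group. The totals per gene sum over these splits.

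Other NRF2 targets were examined as a list that had not been part of the 31. It too was chosen with earlier results of these data known, so its counts are no independent check. Of 42 tested, 11 rose in ESW against Control (26.2%, where 4.76% of all tested genes were called as higher) and 0 fell, with a median log2 fold change of 0.08. Among those with the smallest p were Hmox1, heme oxygenase 1 (0.44, adjusted p = 3.31e-05), Ftl1 and Fth1, the ferritin chains (0.37 and 0.23), Slc48a1, a heme transporter (0.28), and Ugt1a6, a glucuronosyltransferase (0.44). Hmox1 had 84.8, 79.8 and 78.6 CPM in ESW, 68.2, 67.3 and 65.0 CPM in CW, and 58.4, 62.8 and 58.6 CPM in Control, without overlap between any groups. Against CW, 7 of the 42 rose and 1 fell in ESW, where 4.15% of all tested genes were called as higher and 3.99% as lower. The 7 included Hmox1 (0.28), Slc48a1 (0.28), Ftl1 (0.22), Sqstm1, the autophagy receptor that also binds KEAP1 (0.17), and Slc6a6, the taurine transporter (0.18). Hmox1, Ftl1 and Slc48a1 kept their calls in both comparisons under all 17 alternatives, with adjusted p no higher than 0.0315. Slc6a6 lost both of its calls without replicate 2 or 3 of ESW or of the group compared, with adjusted p up to 0.124.

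Other glutathione enzymes and transporters did not move in 1 direction. Of 33 tested, 5 rose and 3 fell in ESW against Control, where 4.76% of all tested genes were called as higher and 3.28% as lower, with a median log2 fold change of 0.02. Gstm2, a second mu-class transferase (0.18), the amino acid carriers Slc1a4 (0.15) and Slc1a5 (0.16) and Ggt5, a gamma-glutamyltransferase of the cell surface (0.42), were among those that rose. Among those that fell, Cth, which makes cysteine from cystathionine, fell by 0.17 on the log2 scale (adjusted p = 0.0439), and Chac2, which degrades glutathione, fell by 0.36 (adjusted p = 0.0457). Against CW, 3 of the 33 rose in ESW, Gstm2, Slc1a4 and the mitochondrial glutathione carrier Slc25a39, and 0 fell. Of all tested genes 4.15% were called as higher and 3.99% as lower in that comparison. Among 15 NADPH enzymes outside the 31 genes, 3 rose in ESW against Control, Nnt (0.14) and Pgls (0.22) among them, and 2 rose against CW, Nnt (0.14) among them. These were 20% and 13.3% of those tested, where 4.76% and 4.15% of all tested genes were called as higher. Of the calls named here, Gstm2 against CW held under all 17 alternatives (adjusted p no higher than 0.0488). Each of the others was lost without at least 1 library, ESW replicate 3 among them for Slc1a4, Slc1a5, Ggt5, Cth, Chac2, Slc25a39, Nnt and Pgls. None of these lists had a called gene in CW against Control.

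Of 16 tested regulators of NRF2, 2 rose in ESW against Control and 3 against CW, with 0 lower in either, where 4.76% and 4.15% of all tested genes were called as higher. Rxra, a retinoid receptor that represses NRF2 activity, rose by 0.23 and 0.25 on the log2 scale (adjusted p = 0.00617 and 0.00558), and Nfe2l1, the related factor NRF1, by 0.17 in both (adjusted p = 0.0226 and 0.0221). Mafk, a small MAF partner, rose by 0.18 against CW (adjusted p = 0.0292). The Nfe2l1 calls were lost without replicate 2 or 3 of ESW or of the group compared (adjusted p up to 0.118 against Control and 0.131 against CW), and the Mafk call without ESW replicate 1 or 3 or CW replicate 2 or 3 (up to 0.158). Nfe2l2 had 166, 180.4 and 165 CPM in ESW, 171, 159 and 166 CPM in CW, and 178, 175 and 164 CPM in Control, with all groups overlapping. Its transcript was not called against Control (-0.02, adjusted p = 0.873) or CW (0.05, adjusted p = 0.58), and NRF2 protein was not measured here. Keap1 did not pass the test either (0.16, adjusted p = 0.139 against Control, and 0.03, adjusted p = 0.811 against CW).

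The calls differed in how they held up when tools, filters, models or single libraries changed, 17 alternatives in all. Against Control, Akr1b8, Pgd, Nqo1 and Idh1 kept their call under every alternative run, with adjusted p no higher than 0.00177, 0.0123, 0.0364 and 0.0422. Against CW, Akr1b8 alone did so, with adjusted p no higher than 0.0264. The sign of the 12 and of the 8 called genes did not change under any alternative.

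**Figure D4:**
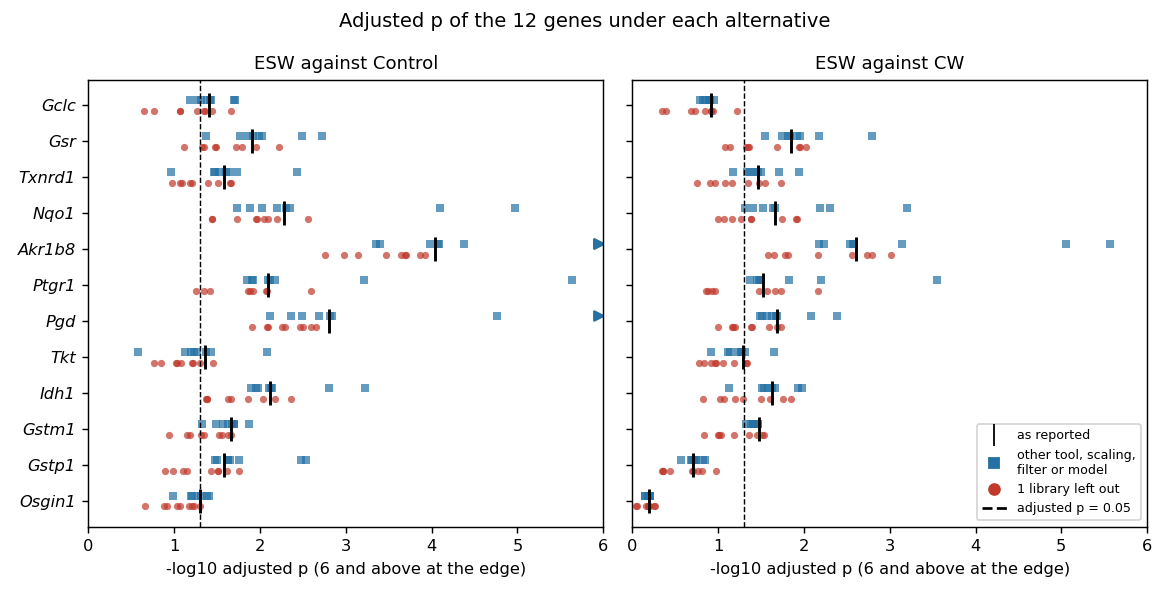
Adjusted p as -log10 (horizontal axis, values of 6 and above at the edge) of the 12 called genes, for ESW against Control and ESW against CW. Black bars give the reported value, squares the other tools, filters and models, circles the fits without 1 library, and the dashed line 0.05. Every Akr1b8 point lies right of the line in both panels. In the first, 8 of the 12 genes, Tkt and Osgin1 among them, have points on both sides of it. In the second, 7 of the 8 genes called there do.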

How the data were processed

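Total RNA came from 9 samples of H9c2(2-1) cells, 3 each of ESW, CW and Control, and sequenced on an Illumina NovaSeq X Plus, per the labels' protocols. Transcripts were quantified with Salmon 1.10.3, per the submitters' processing notes, which also name DESeq2. Per the file headers, the deposited values are estimated counts, TPM and effective lengths per transcript. The annotation release and genome build behind them are not given in the sources used here. All 114122 transcripts were matched to the RefSeq gene table of GRCr8, estimated counts and TPM were summed per gene, and the sums of counts were rounded. Genes were filtered with filterByExpr, scaled with TMM and tested with edgeR 4.0.16 (glmQLFit, glmQLFTest; R 4.3.3) in 1 fit over all 9 libraries, with group as the only term and 6 residual degrees of freedom. Called means a Benjamini-Hochberg adjusted p under 0.05 over 14706 genes, and CPM are TMM-scaled. The biological coefficient of variation was 4.84%. Depth was 26748673 to 48574618 estimated reads per library. The steps were tested on simulated data.

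The member genes and all lists were chosen with earlier results of these data known. Values per library are given for every called member and for Gclc, Gclm, Gss, Gsr, Txn1, Txnrd1, Nqo1, Nqo2, Slc7a11 and Pgd, and by range for the rest, and each other list is named by up to 6 called genes with the smallest p. Chac2, Slc25a39, Pgls and Abcc5 were named after their values were seen. Some genes of the other lists are counted but not reported here by name. The labels do not say that the replicate numbers of the titles pair the libraries, and no pairing showed in the values. The alternatives were DESeq2 1.42.0, limma-voom (limma 3.58.1), DESeq2 size factors, no filter, a filter of 1 CPM in 3 libraries, average transcript length offsets, a replicate block, a fit of only the 2 groups compared, and leaving out each library.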

Additional observations from a re-analysis of the deposited data

How the results depend on the processing

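No called member changed sign under the 17 alternatives. The split of all called genes did move: for ESW against CW it was 610 higher and 587 lower, but 564 and 596 with DESeq2 size factors, 776 and 845 with no filter, 505 and 708 with a filter of 1 CPM and 655 and 762 with only the 2 groups compared, and for CW against Control it was 4 higher and 22 lower, but 2 and 0 with length offsets and 115 and 158 with no filter. For ESW against Control, 12 members were called, 9 to 12 under the other tools, filters and models, and 5 to 12 when 1 library was left out; all tested genes called numbered 1183, but 440 with average transcript length offsets and 397 to 1544 when 1 library was left out. For ESW against CW, 8 members were called, 6 to 10 under the other tools, filters and models, and 1 to 11 when 1 library was left out. All tested genes called numbered 1197, 802 to 1621 under the other tools, filters and models, and 314 to 1486 when 1 library was left out. For CW against Control, 0 members were called throughout, while the 26 genes became 273 with no filter on low counts, 80 with DESeq2, 2 with length offsets, 16 with only the 2 groups compared and 5 to 51 when 1 library was left out. The cause was not tested. Leaving out ESW replicate 3, Control replicate 2 or Control replicate 3 took the genes called in ESW against Control to 397, 534 and 590. Leaving out ESW replicate 2, ESW replicate 3, CW replicate 2 or CW replicate 3 took those in ESW against CW to 571, 314, 407 and 474. Among members not called, Txn1 was called lower under 2 alternatives against Control and 5 against CW, Gsto1 lower under 3 against CW, Tkt higher under 4 against CW and Me1 higher under 1 against Control. Log2 fold changes of members that were not called changed sign in 7 of 285 values for ESW against Control, 17 of 355 for ESW against CW and 37 of 485 for CW against Control.

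With the replicate number as a block, 9 members and 971 genes were called in ESW against Control, 8 and 949 in ESW against CW, and 0 and 25 in CW against Control. Gclc (adjusted p = 0.0652), Tkt (0.0629) and Osgin1 (0.0622) were the members not called under it in ESW against Control. Same-numbered libraries did not deviate together, with r between -0.118 and 0.04 over 9 pairs, and 1 of 9 libraries was closest to its own number. No pairing showed in these values, which cannot settle whether same-numbered libraries shared a culture or a day, and the labels do not say. Depth limits Nqo2, Gstk1, Mgst1, Gsta4 and Osgin1, for which differences were poorly measured.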

Other observations

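Targets of ATF4, a stress factor that also drives Slc7a11, were counted beside the NRF2 genes. Of 19 tested, 0 rose and 1 fell in ESW against Control, and 0 rose and 1 fell in ESW against CW, in both cases Ddit3, which codes for the stress factor CHOP. Of all tested genes 3.28% and 3.99% were called lower in these comparisons, a share near which 1 of 19 lies, so the count is no result about the list. Ddit3 had 35.2, 35.8 and 32.4 CPM in ESW, 41.2, 39.7 and 39.5 CPM in CW, and 39.6, 43.4 and 42.9 CPM in Control, with all ESW libraries below the others. Its log2 fold change was -0.28 against Control (adjusted p = 0.00331, edgeR) and -0.22 against CW (adjusted p = 0.0194). The call against CW was lost without ESW replicate 3 or any 1 of the CW libraries (adjusted p up to 0.107). Atf4 itself was not called (-0.09, adjusted p = 0.12 against Control).

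Abcc5, an organic anion exporter, was the 1 gene among the other NRF2 targets called lower, in ESW against CW. Of all tested genes 3.99% were called lower in that comparison, so the count is no result about the list. It had 42.8, 31.7 and 38.8 CPM in ESW, 48.7, 57.6 and 54.5 CPM in CW, and 27.6, 43.9 and 47.2 CPM in Control. The log2 fold change was -0.51 against CW (adjusted p = 0.0229) and -0.07 against Control (adjusted p = 0.795), and Control replicate 1 was the lowest library. The call against CW was lost without replicate 2 or 3 of ESW or of CW (adjusted p up to 0.136), and without Control replicate 1 the gene was called lower against Control too.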
